A study of Mus musculus with 8 samples.

Results

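The guanylin hormones, their receptor and the effectors of that receptor were followed as a set of 5 genes, Guca2a, Guca2b, Gucy2c, Prkg2 and Cftr, among the 34963 gene names of the array. They were chosen by name, as the probes whose gene name in the scanner files is one of these symbols, and with their differences between the Cdx1 genotypes and between the tissues already known. Each gene has 1 probe. The samples were RNA pools from mice of mixed C57BL/6 and 129 background. Medullary thymic epithelial cells (mTEC) came from 3 Cdx1+/+ and 3 Cdx1-/- pools of 4 to 6 thymi, and were sorted as live CD45-negative Epcam and UEA1 double-positive cells with high MHC class II and CD80. Small intestine epithelial cells (SIEC) came from 1 pool of 3 mice labelled Cdx1+/+ and 1 labelled Cdx1-/-. Cdx1 encodes a homeobox transcription factor of the gut epithelium, and the series asks how its loss changes ectopic gene expression, the transcription of genes of other organs, in mTEC. The labels do not say which part of Cdx1 is deleted in the Cdx1-/- mice.

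Guanylin (Guca2a) and uroguanylin (Guca2b) are small peptides that gut epithelial cells release into the lumen. Both bind guanylate cyclase C (Gucy2c) on the luminal membrane, which then makes cyclic GMP. The cyclic GMP activates the membrane-bound kinase Prkg2, which opens the chloride and bicarbonate channel Cftr, so that salt and water follow into the lumen. Bacterial heat-stable enterotoxin acts on the same receptor.

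Each level below rests on a single oligonucleotide of 60 bases, and those bases show what was measured. Positions are on mouse build mm9, as the array files give them. The Guca2a probe lies on chromosome 4 (chr4:119311857-119311916, plus strand), with 7 codons, then the stop codon of the reading frame in capitals, then 36 further bases that are not shown. The Cftr probe (chr6:18270974-18271033, plus strand) ends on the stop codon of its frame, in capitals, after 19 codons. The Gucy2c probe (chr6:136646532-136648027, minus strand) covers 1496 bases of genome, so 1436 are skipped and it crosses an exon junction.
Guca2a, first 24 bases: tacgctgcctgtacgggatgcTAG
Gucy2c: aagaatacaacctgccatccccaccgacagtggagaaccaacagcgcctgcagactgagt
Cftr: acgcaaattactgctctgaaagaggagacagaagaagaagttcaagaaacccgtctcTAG
The Guca2b probe (chr4:119329250-119329309, minus strand) begins 17333 bases beyond the end of the Guca2a probe, and the genes are transcribed towards each other.

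The targeted gene was measured first. A level is the log2 processed signal minus the 75th percentile of its own array, so that 0 is the 75th percentile. Cdx1 read 5.88, 5.90 and 5.96 on Cdx1+/+ mTEC replicates 1, 2 and 3, and 4.80, 4.98 and 5.00 on the Cdx1-/- replicates. It was lower by 0.99 on the log2 scale (limma, SE 0.09, adjusted p = 0.00373) and remained well above background on all 6 arrays. Whether the Cdx1 probe lies in the deleted part is not known, so this is an incomplete check of the labels. On the SIEC arrays Cdx1 read 4.87 under the label Cdx1+/+ and 6.48 under the label Cdx1-/-, opposite in direction to mTEC. The intestine arrays are therefore named by label throughout, and values between tissues are also given without each of them. Of 59305 spots per array, 58.6% to 63.5% were well above background in mTEC and 44.6% to 46.3% in SIEC, with 0 saturated spots. Of 10 mTEC markers, all were well above background on the 6 mTEC arrays, and Aire, Cd40, Cd86, Fezf2 and Krt5 were so on neither SIEC array. Slide 1 held 5 mTEC arrays, and slide 2 held Cdx1-/- mTEC replicate 1 with both SIEC arrays. All 5 guanylin pathway probes were well above background on all 8 arrays, so each passed the filter on dim probes in every group.

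In Cdx1-/- mTEC both hormone transcripts, the kinase Prkg2 and the channel Cftr were lower than in Cdx1+/+ mTEC, and the receptor transcript Gucy2c was higher. In these pooled cells, fewer cells that make a transcript and less transcript per cell cannot be told apart. The p-values of limma reflect the spread between pooled samples of 1 experiment. Because the genes were picked with this contrast in view, their differences are given as descriptions without p-values. All 5 passed an adjusted p of 0.05, 4 lower and 1 higher, where 12.9% of the 24338 genes tested passed, 6.61% lower and 6.28% higher. The arrays of the 2 genotypes did not overlap for any of the 5, which held for 38% of genes tested.

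Guanylin (Guca2a) read 1.06, 1.29 and 0.89 on Cdx1+/+ mTEC replicates 1, 2 and 3, and −0.30, −0.10 and 0.08 on Cdx1-/- replicates 1, 2 and 3. Every Cdx1+/+ array was above every Cdx1-/- array, with a gap of 0.81 on the log2 scale between the nearest pair. The means were 1.08 ± 0.20 and −0.10 ± 0.19 (SD, n = 3 each), so the level fell by 1.19 (SE 0.14), which is 2.27-fold. Among all genes tested, 0.888% had a more negative difference.

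Uroguanylin (Guca2b) read 2.02, 2.60 and 1.89 on the Cdx1+/+ arrays and 0.73, 0.93 and 1.02 on the Cdx1-/- arrays. Again the genotypes were apart, and Cdx1+/+ replicate 2 stood highest for both hormones. The means were 2.17 ± 0.38 and 0.90 ± 0.15 (SD, n = 3 each), and the difference was −1.27 (SE 0.20, 2.42-fold lower). Over the 6 mTEC arrays the hormones fell in the same order, with Cdx1-/- replicate 1, the array on slide 2, lowest for each. Without that array, which leaves slide 1 alone, the differences were −1.09 for Guca2a and −1.19 for Guca2b.

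The receptor Gucy2c read 0.07, 0.03 and 0.08 on the Cdx1+/+ arrays and 0.58, 0.54 and 0.56 on the Cdx1-/- arrays. These replicates were close to each other, and the Cdx1-/- arrays were all higher. The means were 0.06 ± 0.03 and 0.56 ± 0.02 (SD, n = 3 each), a difference of 0.50 (SE 0.08, 1.42-fold higher). It was the 1 gene of the 5 above its Cdx1+/+ level, and 94.2% of all genes tested had a lower difference.

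The kinase Prkg2 read −0.09, −0.07 and −0.09 on the Cdx1+/+ arrays and −1.44, −1.27 and −1.70 on the Cdx1-/- arrays. The Cdx1+/+ arrays were nearly equal, while the Cdx1-/- arrays were all lower and more spread. The means were −0.08 ± 0.01 and −1.47 ± 0.21 (SD, n = 3 each), and the difference of −1.39 (SE 0.12, 2.62-fold lower) was the largest in size of the 5.

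Cftr read −2.15, −2.36 and −2.31 on the Cdx1+/+ arrays and −3.37, −3.02 and −2.83 on the Cdx1-/- arrays. The genotypes were apart by 0.46 between the nearest arrays, the smallest such gap of the 5, shared with Gucy2c. The means were −2.27 ± 0.11 and −3.07 ± 0.28 (SD, n = 3 each), a difference of −0.80 (SE 0.15, 1.74-fold lower). Of the 5 genes, Cftr was the one that did not pass in every repeat of the test. It missed the threshold without Cdx1+/+ replicate 1 (difference −0.73), replicate 2 (−0.84) or replicate 3 (−0.81), without Cdx1-/- replicate 2 (−0.82), and with no filter on dim probes. Without Cdx1-/- replicate 1 its difference was −0.65.

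**Figure D1:**
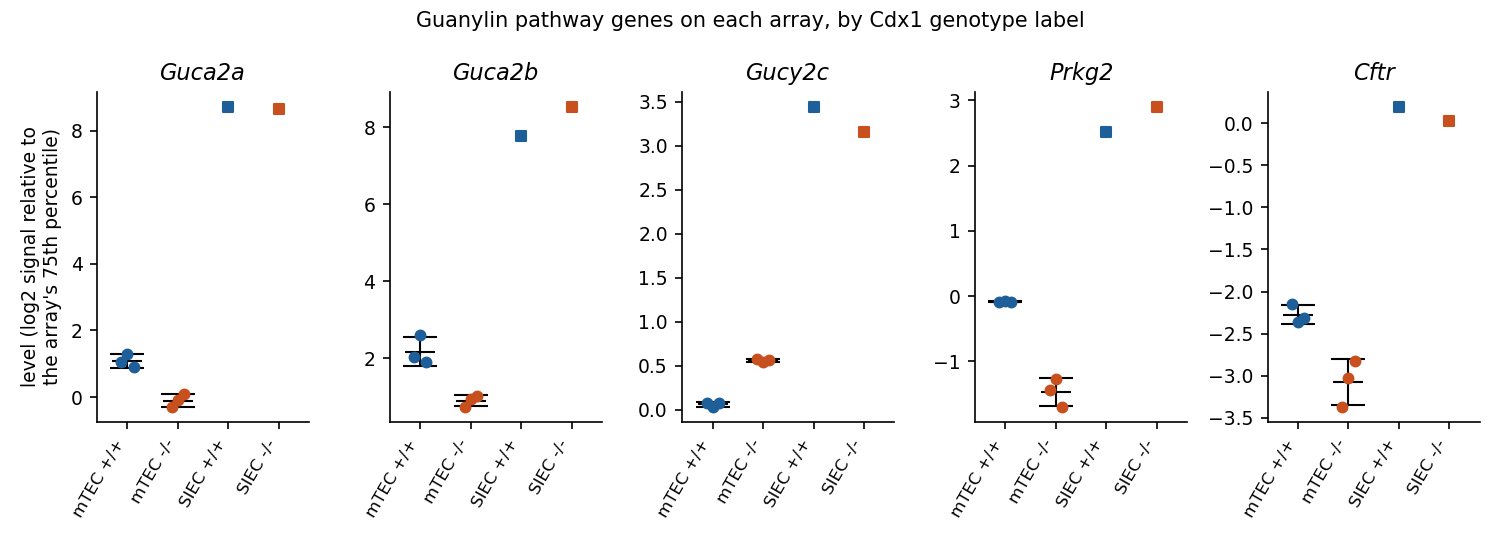
Level of each gene on each array (y axis, log2 signal relative to the array's 75th percentile, a separate scale per gene) by cell type and Cdx1 genotype label (x axis), with circles for mTEC, squares for SIEC and bars for the mean ± SD of 3 mTEC arrays. Guca2a, Guca2b, Prkg2 and Cftr sit lower in Cdx1-/- than in Cdx1+/+ mTEC, Gucy2c sits higher, and both SIEC arrays lie above all 6 mTEC arrays for every gene.

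The hormone genes were examined together with their neighbours, which were chosen by position after their values were seen. Guca2a and Guca2b lie side by side, with Foxj3, a forkhead transcription factor gene, on one side and Hivep3, a zinc finger transcription factor gene, on the other. Foxj3 differed by 0.05 (limma, adjusted p = 0.803) and Hivep3 by 0.25 (adjusted p = 0.207) between the mTEC genotypes, so neither passed. Of the 7 named genes tested on this stretch, from Ccdc30 to Hivep3, 5 did not pass and 2 rose. Zmynd12 rose by 0.66 (adjusted p = 0.0363) and Rimkla by 0.33 (adjusted p = 0.0475), opposite in direction to the hormones. Of all genes tested in mTEC, 6.28% passed as higher and 6.61% as lower. Transcripts known only by position lie between Guca2b and Hivep3. Those tested differed by 0.30 (adjusted p = 0.235) and −0.56 (adjusted p = 0.397) and did not pass.

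Promoter windows of 300 bases, 250 before and 50 from the start of the gene, were found for 3 of the 5 genes in RefSeq (GRCm38.p6). Windows were sought for all 5 and none was found for Gucy2c or Prkg2, so these 3 genes were not chosen by their direction. The last 150 bases before each start are printed, on the strand of the gene. These bases are all in lower case since neither the Cdx nor the HNF4 motifs named below matched, and other motifs are not reported. They are chr4:119637582-119637731 (plus strand) for Guca2a, chr4:119658946-119659095 (minus strand) for Guca2b, and chr6:18170537-18170686 (plus strand) for Cftr.
Guca2a: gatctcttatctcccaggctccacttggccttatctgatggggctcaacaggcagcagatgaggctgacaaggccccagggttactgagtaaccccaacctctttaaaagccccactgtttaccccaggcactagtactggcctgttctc
Guca2b: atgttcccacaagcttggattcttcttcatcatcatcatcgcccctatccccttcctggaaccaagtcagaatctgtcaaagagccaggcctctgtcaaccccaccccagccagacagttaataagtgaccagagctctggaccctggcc
Cftr: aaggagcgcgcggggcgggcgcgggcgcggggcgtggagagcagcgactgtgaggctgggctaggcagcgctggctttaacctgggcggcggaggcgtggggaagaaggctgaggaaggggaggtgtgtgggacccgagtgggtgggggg
The hormone windows held 1 CpG each, and 5.4% of the windows of all genes held fewer. The Cftr window held 31, and 89.4% of windows held fewer. Their GC content was 56.3%, 56.0% and 71.3%. The core Cdx motif TTTAT, searched on both strands, was in none of the 3 windows, against 40.0% of 32851 windows. Its longer form TTTATNG, whose matches are also matches of the core, was in none, against 10.9%. The HNF4 motif CAAAGTC was in none of the 3 and in 4.4% of all windows. The absence of these letters from short windows says nothing of what binds there.

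Compared with small intestine epithelium, all 5 transcripts were far lower in mTEC, the hormones most. All 5 passed between tissues, where 83.6% of the 25273 genes tested passed, 49.3% as lower and 34.3% as higher in mTEC. Of the genes that passed, 58.9% were lower, or 70.6% after normexp background correction and 52.5% after quantile normalization. The SIEC and mTEC arrays did not overlap for any of the 5, as for 82.1% of genes tested. This contrast was also known when the genes were chosen, and it uses the same 6 mTEC arrays as the genotype contrast, so it adds no independent evidence. The median difference of all genes was −0.43 under the main scaling and ranged from −0.90 in the authors' table to −0.10 after quantile normalization.

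Guca2a read 8.71 on the SIEC array labelled Cdx1+/+ and 8.64 on the one labelled Cdx1-/-, against −0.30 to 1.29 on the mTEC arrays. The difference was −8.19 (SE 0.25), which is 291-fold lower in mTEC, and 0.0673% of genes tested lay further down. Guca2b read 7.76 (labelled Cdx1+/+) and 8.52 (labelled Cdx1-/-) in SIEC against 0.73 to 2.60 in mTEC, a difference of −6.61 (SE 0.42, 97.7-fold lower). So even the highest mTEC array stood over 5 log2 units under the intestine for either hormone.

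Gucy2c read 3.44 (labelled Cdx1+/+) and 3.16 (labelled Cdx1-/-) in SIEC against 0.03 to 0.58 in mTEC. The difference of −2.99 (SE 0.17) is 7.95-fold. Prkg2 read 2.52 and 2.90 on these SIEC arrays against −1.70 to −0.07 in mTEC, a difference of −3.49 (SE 0.35, 11.2-fold lower). Cftr read 0.19 and 0.02 against −3.37 to −2.15, a difference of −2.78 (SE 0.19, 6.85-fold lower). The receptor, kinase and channel thus differed between the tissues by less than the hormones did, under each of the 4 scalings. Relative to the median of all genes, Guca2a ranged from −7.76 to −7.11 and Guca2b from −6.18 to −5.48 over those scalings. Gucy2c ranged from −2.56 to −2.10, Prkg2 from −3.06 to −2.56 and Cftr from −2.75 to −1.57.

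The tissue differences rest on 2 intestine arrays. Without the array labelled Cdx1+/+ the difference was −7.62 for Guca2b and −4.37 for Prkg2, and without the array labelled Cdx1-/- it was −5.60 and −2.60. With 1 of them left out, the fit sets the other against the mTEC arrays of the same genotype label only. These values therefore also hold the difference between the mTEC genotypes. Each tissue holds as many arrays under one genotype label as under the other. A fit with no genotype term therefore gave the same 5 differences by construction, and is no check of the labels. All 5 passed in it. Slide 2 holds both SIEC arrays and 1 mTEC array. With slide as a block, which compares the tissues within it, the differences were −8.59 for Guca2a, −7.10 for Guca2b, −2.85 for Gucy2c, −3.71 for Prkg2 and −3.22 for Cftr.

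Between the 2 SIEC arrays, labelled Cdx1-/- against labelled Cdx1+/+, none of the 5 reached a 2-fold difference, as 9.26% of 19132 genes did. With 1 array per label there is no test. The median absolute difference of all genes between these 2 arrays was 0.28. The differences were −0.06 for Guca2a, 0.75 for Guca2b (1.69-fold), −0.29 for Gucy2c, 0.37 for Prkg2 and −0.16 for Cftr. As labelled, the sign for Guca2b, Gucy2c and Prkg2 was opposite to that in mTEC. Cdx1 goes against these labels, and with the labels turned the differences were 0.06 for Guca2a, −0.75 for Guca2b, 0.29 for Gucy2c, −0.37 for Prkg2 and 0.16 for Cftr, so that Guca2a and Cftr would be the opposite ones. Whether the tissues differ in this was not tested.

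Other genes of the cyclic nucleotide and fluid secretion pathways were read from 6 lists of 115 genes. Of those tested in mTEC, 5 rose and 18 fell in Cdx1-/- and 84 did not pass, which is 21.5% called beside 12.9% of all genes. The lists were chosen with earlier results of these data known, so this share is a description only. Their median difference was −0.09, beside 0.003 for all genes. The count of 23 fell to between 10 and 16 when 1 array was left out, the lowest without Cdx1+/+ replicate 3, and to 13 with slide as a block. For all genes the count went from 3137 to between 1245 and 1845 when 1 array was left out. Of the 23 calls, 9 held under all alternatives tried. Slide as a block in mTEC amounts to leaving out Cdx1-/- replicate 1, so these alternatives, counted apart below, are not separate checks.

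The list of guanylate cyclases, their activators and natriuretic peptides had 15 tested genes, of which 4 fell and 11 missed the threshold, and its median was −0.23. Gucy2d, which in mouse encodes the guanylate cyclase of a class of olfactory neurons, went from 0.35 ± 0.09 to −0.46 ± 0.14 (SD, n = 3 each), a difference of −0.81 (SE 0.10, adjusted p = 0.00783). Nppa, which encodes atrial natriuretic peptide, fell by 0.48 (adjusted p = 0.0125). Nppb, which encodes the brain type, fell by 0.53 (adjusted p = 0.015), and its p was 0.0543 without Cdx1+/+ replicate 3. Nos1, the neuronal nitric oxide synthase gene, fell by 0.52 (adjusted p = 0.0209), and that call was lost under 7 of 14 alternatives, with a difference of −0.34 after normexp. The natriuretic peptide receptor genes Npr1 and Npr3 and the cyclase genes Gucy2f and Gucy2g were well above background on none of the 8 arrays. Gucy2e (−0.23), a retinal guanylate cyclase gene, and Npr2 (0.03), a natriuretic peptide receptor gene, were chosen after their values were seen, did not pass.

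Downstream of cyclic GMP, 1 of 20 tested genes of cyclic nucleotide breakdown and export fell and 19 did not pass. It was Pde9a, a phosphodiesterase specific for cyclic GMP, with 0.29 ± 0.06 in Cdx1+/+ and −0.45 ± 0.07 in Cdx1-/- mTEC (SD, n = 3 each), a difference of −0.74 (SE 0.09, adjusted p = 0.00585). Of 16 kinases, anchors and cyclic nucleotide-gated channels, 1 rose, 1 fell and 14 did not pass. Cnga3, a cone photoreceptor channel subunit, rose by 0.62 (adjusted p = 0.0114, but 0.065 after normexp background correction). Prkg1, the other cyclic GMP-dependent kinase gene, fell by 0.55 (adjusted p = 0.0401), a call lost under 8 of 14 alternatives. The genes of protein kinase A, Prkaca, Prkacb, Prkar1a, Prkar1b, Prkar2a and Prkar2b, did not pass. They were chosen after their values were seen and differed by −0.26 (Prkar2b) to 0.13 (Prkar1b).

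Of 12 tested scaffolds of the receptor and channel, 1 fell and 11 did not pass. Snap23, a membrane fusion protein gene, fell by 0.89 (SE 0.20, adjusted p = 0.034), a call lost under 7 of 14 alternatives. Over the mean of its measured probes the difference was −0.28 (adjusted p = 0.105). Among 24 tested ion transport genes, 3 rose, 4 fell and 17 missed the threshold, and the median was −0.02. The sodium bicarbonate cotransporter gene Slc4a4 fell by 1.00 (SE 0.11, adjusted p = 0.00531) and the epithelial sodium channel subunit gene Scnn1b by 0.98 (SE 0.12, adjusted p = 0.00718; −0.65 after normexp). Slc26a9, a chloride transporter gene, rose from 0.04 ± 0.09 to 0.70 ± 0.04 (SD, n = 3 each; adjusted p = 0.00763). The sodium-proton exchanger gene Slc9a2 rose by 0.43 (adjusted p = 0.0254), a call lost under 7 of 14 alternatives. Slc12a2, which loads the cell with the chloride that Cftr releases, differed by 0.34 and did not pass (adjusted p = 0.119); it was chosen after its values were seen.

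Of 20 tested genes of other secretagogues and their receptors, 1 rose, 7 fell and 12 missed the threshold, and the median was −0.38. Sct, which encodes the hormone secretin, went from 5.66 ± 0.09 to 4.67 ± 0.03 (SD, n = 3 each), so it fell by 1.00 (SE 0.09, adjusted p = 0.00325). The pituitary adenylate cyclase-activating peptide gene Adcyap1 fell by 0.67 (adjusted p = 0.0103). Sst, the somatostatin gene, fell by 0.52 (adjusted p = 0.0151, and 0.0566 without Cdx1+/+ replicate 3). The adenosine receptor gene Adora2b rose by 0.78 (SE 0.08, adjusted p = 0.00451).

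**Figure D2:**
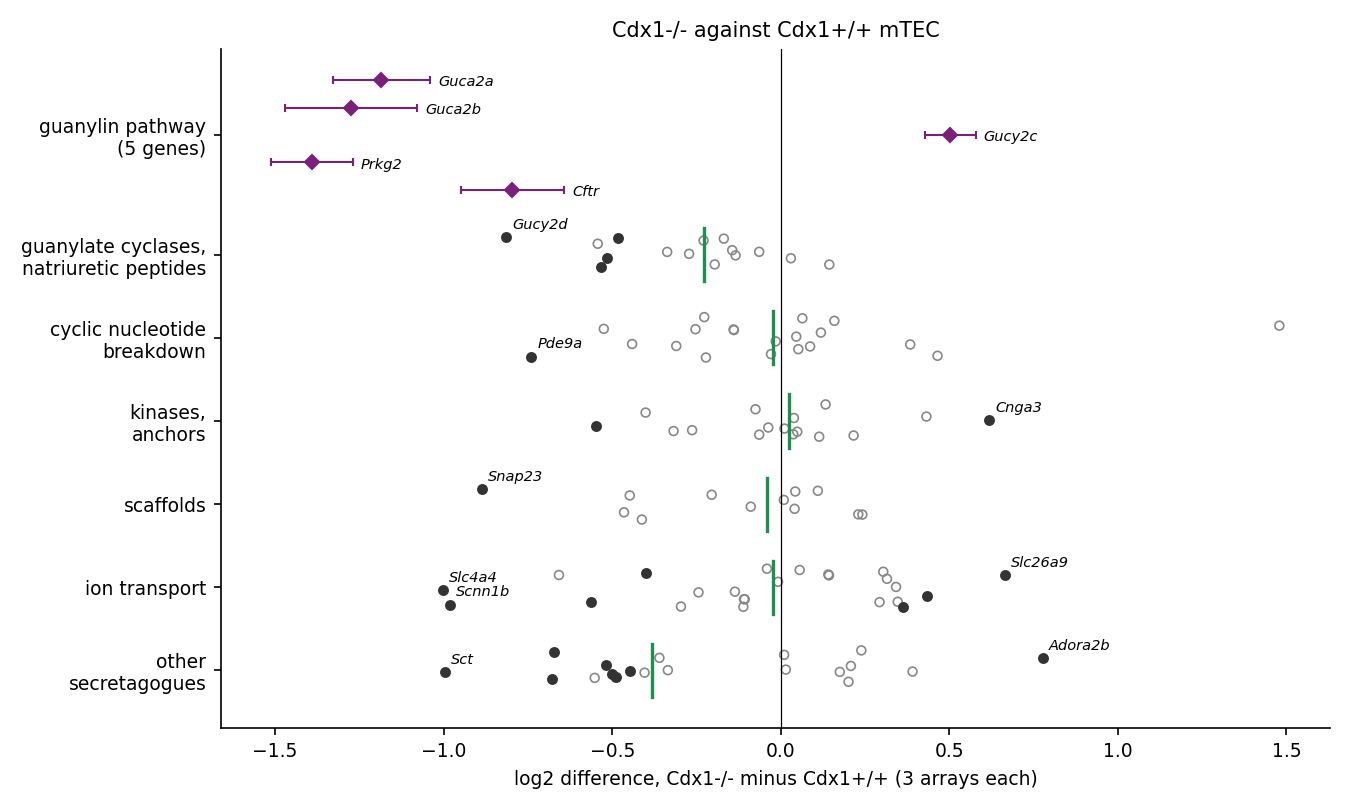
Log2 difference between Cdx1-/- and Cdx1+/+ mTEC (x axis) for the 5 guanylin pathway genes (diamonds with standard error) and for the genes of 6 pathway lists (circles, filled where the adjusted p of limma was under 0.05, with the list median as a green line). The 4 lower guanylin genes lie at −0.80 to −1.39, Gucy2c at 0.50, and the list medians between −0.38 and 0.02.

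Between the tissues, 96 of 108 tested pathway genes passed (88.9%, beside 83.6% of all genes), 45 lower and 51 higher in mTEC. That balance turned to 48 lower and 42 higher after normexp and to 52 and 45 in the authors' table. With quantile normalization it was 41 lower and 54 higher. The splits per list below are those of the main scaling. Of 12 scaffolds, 8 were lower in mTEC, 1 was higher and 3 did not pass. Pdzd3, a PDZ protein gene, was 54.2-fold lower (difference −5.76, limma, adjusted p = 9.78e-08), Pdzk1 was 39.4-fold lower and Snap23 was 8.29-fold lower (difference −3.05, or −1.49 over the mean of its probes). Slc9a3r2, a PDZ scaffold gene, was higher by 0.51 (adjusted p = 0.0149), a call lost under 6 of 17 alternatives. Of 24 ion transport genes, 16 were lower and 7 higher. The chloride-bicarbonate exchanger gene Slc26a3 was 133-fold lower, the anion exchanger gene Slc26a6 was 116-fold lower and Kcne3, a potassium channel subunit gene, was 112-fold lower. Slc26a9 was not well above background in SIEC and was at least 17.9-fold higher in mTEC, and Nkain4 at least 12.7-fold. Best2, a bestrophin channel gene measured on 1 of the 2 SIEC arrays, was higher by a fitted 5.17 (3.32 after normexp).

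In the remaining lists more genes were higher than lower in mTEC. Of 15 guanylate cyclase and natriuretic peptide genes, 13 were higher in mTEC and 2 lower, with a median of 3.18. Nppa was at least 85.1-fold higher, Nppc, the C-type peptide gene, at least 8.82-fold, and Nos3, the endothelial synthase gene, at least 19.1-fold, each not well above background in SIEC. Guca1b, a calcium-binding cyclase activator gene, was 3.11-fold lower, and Npr2 was 1.35-fold lower, a call lost under 5 of 17 alternatives. Of 20 genes of cyclic nucleotide breakdown and export, 11 were higher and 7 lower. Pde10a was at least 19.5-fold higher, Pde4b 21.6-fold higher and Pde1c at least 13.0-fold higher, while Pde9a was 9.83-fold lower and Pde5a 9.52-fold lower. The brightest probe of Pde3a was well above background on no mTEC array, but another of its probes was on 2, and its fitted difference was −4.75. That value was −1.48 after normexp, and −2.62 without the SIEC array labelled Cdx1+/+, where the call was lost (adjusted p = 0.0855). Of 16 kinases and anchors, 9 were higher and 5 lower. Prkg1 was at least 8.25-fold higher in mTEC, opposite in direction to Prkg2, and Cnga2 at least 13.0-fold higher. Cngb1 was higher by a fitted 8.34 (5.18 after normexp, 4.35 over the mean of its probes), with its brightest probe on no SIEC array above background and another of its probes on both. The regulatory subunit gene Prkar2a was 10.1-fold lower, and the anchor genes Akap1 and Akap9 were 5.56-fold and 2.74-fold lower. Over the mean of its probes Prkar2a differed by −1.33 and not −3.33, and after quantile normalization Akap9 differed by −0.86 and not −1.46. Of 21 secretagogue genes, 10 were higher and 7 lower, with Npy at least 48.6-fold, Adcyap1 at least 12.3-fold and Vip at least 5.59-fold higher. Vipr1, a receptor gene for vasoactive intestinal peptide, was 24.3-fold lower, Adcy6, an adenylate cyclase gene, was 6.85-fold lower, and Chrm1 was at least 8.81-fold lower. After normexp with its offset of 50, the fitted differences of the 12 genes given here as at least so many fold higher were 1.36 (Vip) to 4.78 (Nppa), and that of Chrm1 was −1.78.

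**Figure D3:**
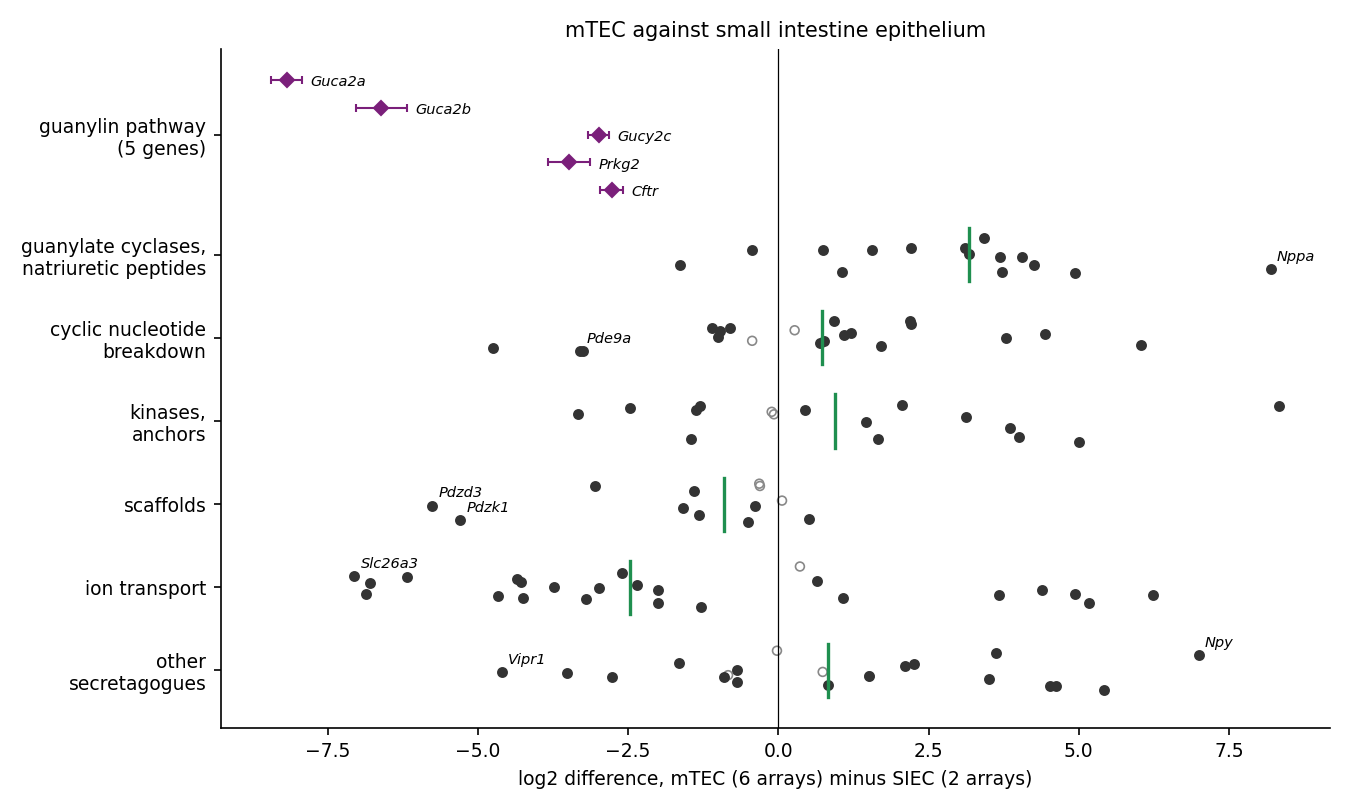
Log2 difference between 6 mTEC and 2 SIEC arrays (x axis) for the 5 guanylin pathway genes (diamonds with standard error) and for the genes of 6 pathway lists (circles, filled where the adjusted p of limma was under 0.05, with the list median as a green line); points of genes not well above background in a tissue are fitted values. The 5 guanylin genes lie at −2.78 to −8.19, the ion transport median at −2.47 and the guanylate cyclase median at 3.18.

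Transcripts of intestine epithelium moved with 4 of the guanylin genes in mTEC and opposite to Gucy2c. Of 8 markers, 7 fell in Cdx1-/- and Cdh17, a cadherin gene, did not pass (−0.55, adjusted p = 0.0538). Sis, the sucrase-isomaltase gene, fell by 1.86 (limma, adjusted p = 0.000871), Lgals4, a galectin gene, by 1.54 (adjusted p = 0.00243), and Vil1, the villin gene, by 1.07 (adjusted p = 0.00419). Their summed signal, in multiples of the array's 75th percentile, was 35.7 to 40.4 in Cdx1+/+ and 14.6 to 16.0 in Cdx1-/- mTEC, and 2003 and 2818 on the SIEC arrays labelled Cdx1+/+ and Cdx1-/-. All 8 were well above background on every mTEC array, so no defining marker was absent. The part of these transcripts in the guanylin differences was not tested. The summed signal of 10 mature mTEC markers was 378 to 434 in Cdx1+/+ and 372 to 423 in Cdx1-/- mTEC. Of the 10, 9 did not pass, and Cd86, a costimulatory receptor ligand gene, rose by 0.35 (adjusted p = 0.0353).

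Other marker lists were read in the same way. Of 6 goblet cell markers 1 fell, with sums of 367 to 473 in Cdx1+/+ and 318 to 409 in Cdx1-/- mTEC. Of 4 tested enteroendocrine markers 2 fell, with sums over the 5 on the array of 46.3 to 48.0 and 34.9 to 35.4. Of 4 tuft cell markers 2 rose, with sums of 2.52 to 3.18 and 4.45 to 5.11, the same direction as Gucy2c. Of 3 Paneth cell markers 1 fell, with sums of 38.5 to 42.2 and 40.0 to 48.8. Of 8 thymocyte and other blood cell markers 1 fell (5.86 to 7.98 and 5.33 to 6.70), and none passed among 3 fibroblast and endothelium and 2 airway, neuroendocrine and ionocyte-like markers that could be tested (3.18 to 3.88 and 3.22 to 3.28, and 4.27 to 4.96 and 3.72 to 3.93). Pdgfra, a fibroblast marker, and Atp6v1g3, an ionocyte marker, were well above background on no mTEC array. All 8 blood cell markers were well above background on all 6 mTEC arrays. On the SIEC arrays labelled Cdx1+/+ and Cdx1-/- the sums were 9.28 and 24.7 for blood cell markers and 4.58 and 1.69 for tuft cell markers. They were 1825 and 2548 for goblet, 140 and 156 for enteroendocrine and 542 and 504 for Paneth cell markers. The part of any of these marker lists in the guanylin differences was not tested.

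Other regulators were read beside them. Hnf4a, a nuclear receptor of gut and liver epithelium, read 0.65, 0.61 and 0.71 on Cdx1+/+ and −0.54, −0.60 and −0.48 on Cdx1-/- mTEC arrays, and fell by 1.20 (limma, adjusted p = 0.00243). Cdx2, the related homeobox gene of the gut, fell by 0.84 (adjusted p = 0.0113). Between the tissues, Hnf4a and Cdx2 read 7.29 and 5.44 on the SIEC array labelled Cdx1+/+, and 7.32 and 5.19 on the one labelled Cdx1-/-.

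**Figure D4:**
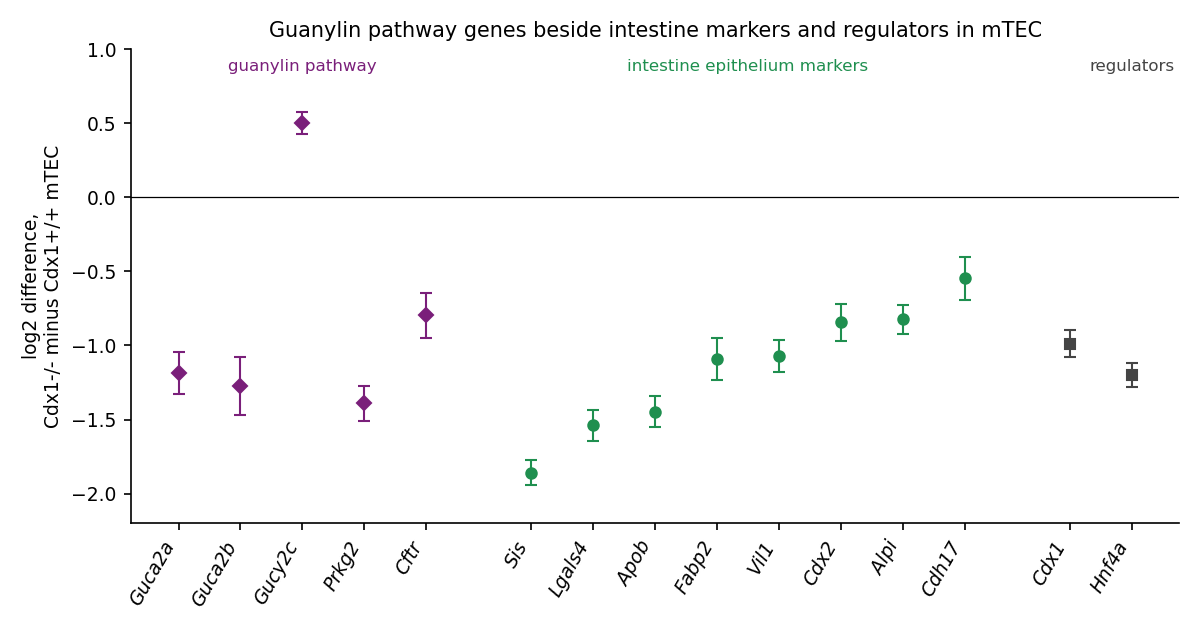
Log2 difference between Cdx1-/- and Cdx1+/+ mTEC (y axis, point and standard error, 3 arrays per genotype) for the 5 guanylin pathway genes, 8 intestine epithelium markers and the regulators Cdx1 and Hnf4a. Guca2a, Guca2b, Prkg2 and Cftr (−0.80 to −1.39) lie within the range of the 8 markers (−0.55 to −1.86), and Gucy2c (0.50) lies above all of them.

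The genes whose levels over the 8 arrays, each centred on its own mean, came nearest to each guanylin gene were taken from 16828 genes with ordinary symbols. The measure is the root mean square difference in log2 units. For Guca2a they were Ms4a8a (0.18), the amino acid transporter gene Slc7a9 (0.21) and Erich4 (0.37). For Guca2b they were Treh, which encodes trehalase (0.175), the fatty acid-binding protein gene Fabp1 (0.185) and Slc3a1, an amino acid transporter subunit gene (0.23). For Gucy2c they were the kinase gene Pak1, the retinol saturase gene Retsat and Myorg, at 0.08 each. For Prkg2 they were Ugt2b36 (0.232), Tstd1 (0.237) and Hnf4g (0.254). For Cftr they were Slfn9 (0.135), the immunoglobulin receptor gene Pigr (0.146) and the folate carrier gene Slc19a1 (0.153). The large step between the tissues weighs most in this measure. By the same measure the nearest pair among the 5 was Prkg2 with Cftr (0.48), then Gucy2c with Cftr (0.59) and the 2 hormones with each other (0.72), and the farthest was Guca2a with Gucy2c (2.37).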

How the data were processed

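RNA of 6 mTEC and 2 SIEC pools was hybridised to 1-colour arrays, 1 per pool. The scanner files that the authors deposited give spot intensity on a linear scale, read with Agilent Feature Extraction 10.7.3.1, per the file headers. Their deposited normalized values are also linear; compared with the scanner files, each column is the processed intensity of its array times 1 constant, with a median of 1. The basis of that scaling was not given in the sources used here.

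Flagged spots were dropped (12 of 55681 probes lost). The log2 processed intensity minus the array's 75th percentile was averaged over spots of a probe. Each gene was read from the brightest of its probes that exceeded background clearly on 2 or more of the 3 arrays of a group, or on the array of a group of 1. Names came from accessions through RefSeq (GRCm38.p6) for 27506 probes, and from the files for the rest. Tests used limma 3.58.1 in R 4.3.3 (package data.table, version 1.17.8), 2-sided, adjusted over all genes by Benjamini-Hochberg, at 0.05, with 6 mTEC arrays for genotype, and all 8 with genotype and tissue for tissue. The procedure was tested on simulated data. Sequences and plots used pandas 2.3.3, numpy 2.4.6 and matplotlib 3.10.9. A fold is "at least" where no array of one tissue had the probe well above background: the mean of the brighter tissue is then set against the higher, on each array of the dimmer one, of what this probe read and the dimmest reading well above background.

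The genes and lists were chosen with earlier results of these data known. Named pathway genes are up to 4 of smallest p per list in mTEC and up to 3 of largest difference per direction between tissues among those that passed, beside Cdx1, Cdx2, Hnf4a and the 3 nearest profiles per guanylin gene. A few items are not reported here. The number of arrays limits the precision. Replicate numbers come from the sample titles. Same-numbered mTEC samples of the 2 genotypes deviated together from their group means (correlations of 0.322, 0.147 and 0.148). The other pairs of samples gave −0.222 to 0.056. Deviations within a group are tied to each other, so these correlations are not independent and the pairing is uncertain. The numbers were fitted as a block as an alternative only. The other alternatives were normexp, quantile normalization, the authors' table, stricter and no filters, the mean of probes, slide as a block, leaving out each array and, added after seeing the data, no genotype term.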

Additional observations from a re-analysis of the deposited data

Results flagged for a closer look

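For 3 genes the difference between the genotype labels had one sign in all mTEC arrays and the other sign in the 2 SIEC arrays. From Cdx1+/+ to Cdx1-/- the difference in SIEC was 0.75 for Guca2b against −1.27 in mTEC, −0.29 for Gucy2c against 0.50, and 0.37 for Prkg2 against −1.39. On these SIEC arrays Cdx1 itself reads against the labels (4.87 under Cdx1+/+, 6.48 under Cdx1-/-). With the labels turned the values were −0.75 for Guca2b, 0.29 for Gucy2c and −0.37 for Prkg2, the signs seen in mTEC, while Guca2a (0.06) and Cftr (0.16) would then be opposite to mTEC. Each SIEC value compares 1 array with 1 array, and the difference between the tissues was not tested. Between these 2 arrays the median absolute difference of all genes was 0.28. Of the genes measured in SIEC, 85.7% differed by less than Guca2b, 62.1% by less than Prkg2 and 51.7% by less than Gucy2c. Over 3 other scalings the SIEC values as labelled kept their sign, at 0.54 to 0.72 for Guca2b, −0.50 to −0.21 for Gucy2c and 0.16 to 0.38 for Prkg2.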

How the results depend on the processing

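In mTEC all 5 guanylin genes kept their direction under the 14 alternatives, from −1.28 to −1.07 for Guca2a, −1.42 to −1.06 for Guca2b, 0.45 to 0.54 for Gucy2c, −1.49 to −1.14 for Prkg2 and −0.92 to −0.58 for Cftr. The stricter and no filters, the mean of probes and the replicate block could not move these differences. Each gene has 1 probe, well above background on every array, and each block holds 1 sample of each genotype. The values that moved beyond the spread of the arrays were Gucy2c at 0.45, Prkg2 at −1.14 and Cftr at −0.58 with normexp and Gucy2c at 0.54 with quantile normalization. With the replicate block 5 guanylin genes, 26 pathway genes and 3473 genes in all passed. The block, which pairs samples by replicate number, ended the calls of 4 of the 23 pathway genes, none of them named in the text, and of no guanylin gene. Of 3137 genes called in mTEC (1529 higher, 1608 lower), 1974 (983 and 991) were called with normexp, 1322 (600 and 722) with no filter and 1779 (851 and 928) with slide as a block. In mTEC slide as a block amounts to leaving out Cdx1-/- replicate 1, the only mTEC array on slide 2. These fits gave the 5 guanylin genes the same differences and are not separate checks. For the pathway lists the count of 23 (5 and 18) became 15 with normexp (3 higher), 12 with no filter (3 and 9) and 13 with slide as a block (3 and 10). Leaving out 1 array gave 1245 to 1845 genes (612 to 877 higher, 633 to 1017 lower) and 10 to 16 pathway genes (3 to 4 and 7 to 13). Without Cdx1+/+ replicates 1, 2 and 3 the gene count was 1768, 1604 and 1245, and without Cdx1-/- replicates 1, 2 and 3 it was 1845, 1826 and 1681. These fits have fewer samples.

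Between the tissues all 5 genes stayed lower in mTEC under the 17 alternatives. Of these, the stricter and no filters, the mean of probes and the fit with no genotype term could not move the differences. Leaving out 1 array gave −8.75 to −7.63 for Guca2a, −7.62 to −5.60 for Guca2b, −3.39 to −2.60 for Gucy2c, −4.37 to −2.60 for Prkg2 and −3.09 to −2.46 for Cftr. With quantile normalization Guca2a was −7.21, Guca2b −5.58 and Gucy2c −2.44. In the authors' table Guca2a was −8.66, Gucy2c −3.47 and Cftr −3.26. With normexp Gucy2c was −2.65 and Cftr −2.13, and with slide as a block Guca2a was −8.59 and Cftr −3.22. With no filter 19045 genes were called lower in mTEC in place of 12455. Both ends of each range on leaving out 1 array came without a SIEC array. The tissue difference is then taken within 1 genotype label, so it also holds the difference between the mTEC genotypes. Fits that leave 1 array out also have fewer samples. The cause of the other shifts was not tested. Each guanylin gene has 1 probe, so other probes could not be tried.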
